A study of Sus scrofa with 6 samples.

Results

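Cadherins are calcium-dependent adhesion molecules of the cell surface. Calcium ions stiffen their extracellular repeats, and in the classical members the cytoplasmic tail binds p120 catenin and beta- or gamma-catenin, which reach the actin cytoskeleton through alpha-catenin. CDH16 (Ksp-cadherin) and CDH17 (LI-cadherin) form a branch of the family with a longer extracellular part and a short tail that does not carry the catenin-binding sites of the classical members. In the pig the uterine epithelium is not breached by the conceptus, which attaches to its surface.

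Cadherin transcripts were followed in the endometrium of Erhualian sows (Sus scrofa), a Chinese pig breed, on day 12 of gestation. The 3 high prolific sows had parities (litters borne) of 5, 8 and 8, and the 3 low prolific sows had parities of 7, 7 and 5. All 6 shared breed, tissue and day. The labels give a phenotype but no litter size or calcium value for a sow, although the series title names both. They do not say whether tissue of 1 animal was pooled from several sites. Sows are called high 1 to high 3 and low 1 to low 3.

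The set held 9 cadherins, CDH1, CDH2, CDH3, CDH6, CDH11, CDH13, CDH16, CDH17 and CDH26, of 14262 genes in all. They were chosen by family name, with the high against low values of CDH16 and CDH17 in these sows already in view. Their group differences are therefore given as a description, with no test. Of the 9, 8 had a row, and all 8 had a mean above 50. CDH26 found no match in the table, so it is not analysed here. Values are normalized read counts as deposited, and each row was matched to its symbol through an Ensembl identifier. Log2 differences are high minus low prolific on the log2(value + 1) scale, with the moderated standard error (SE) of limma, a linear model fitted over all genes. Means carry the SD over 3 sows.

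The 6 columns summed to between 22663087 and 24270245. These sums were set by the normalization, so the depth behind a value is unknown. No gene of the 14262 passed an adjusted p of 0.05 with limma (0%), the lowest being 0.493. An unadjusted p under 0.05 was reached by 1129 genes, or 7.92%. In 902 genes (6.32%) each high prolific sow lay below each low prolific sow, and in 1024 (7.18%) above. Low 2 and low 3 stood apart from the other 4 sows on the first principal component (43.6% of the variance). Markers of epithelium (EPCAM, between 7896 and 11765), stroma (PDGFRA, 4922 to 8604), endothelium (PECAM1, 2356 to 6353) and leukocytes (PTPRC, 995 to 1400.4) were present in every sow.

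CDH16, a cadherin of transporting epithelia first known from the kidney, was lower in each high prolific sow than in any low prolific sow. Its normalized read count was 589.6 in high 1, 529 in high 2 and 666 in high 3. It was 1168 in low 1, 1435 in low 2 and 1872 in low 3. The groups did not overlap, and the nearest pair, high 3 and low 1, lay 0.81 apart in log2 units. The group means (SD, n = 3) were 595 ± 68.6 and 1492 ± 356. The log2 difference was -1.30 ± 0.19 (SE), which on that scale is 2.47-fold lower in high prolific sows. Taken against the mean log2 value of 17 epithelial markers in the same sow, CDH16 lay at -2.39 ± 0.16 for the high prolific group and -1.08 ± 0.47 for the low prolific group (SD, n = 3). That marker mean was itself close to level between the groups, so this scaling could hardly move a difference, and it left that of CDH16 at -1.30. With both low 2 and low 3 left out, which leaves low 1 alone in its group and assumes that it varies like the others, the difference was -0.98.

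CDH17, a cadherin of intestinal epithelium, differed more among the low prolific sows than between the groups. It was at 970.3 in high 1, 1187 in high 2 and 2433 in high 3. Low 1 had 2639.5, low 2 had 179.6 and low 3 had 55.2. Low 1 was the highest of all 6 sows and low 3 the lowest, a span of 47.8-fold, and the groups overlapped across the whole range of the high prolific sows. Its SD within groups, 2.07 in log2 units, exceeded that of 99.7% of the genes in the table, whose median was 0.23. The means were 1530.3 ± 789 and 958 ± 1457 (SD, n = 3), and the log2 difference was 2.24 ± 1.34 (SE). That value rested on low 2 and low 3: leaving out low 1 gave 3.81, leaving out low 3 gave 1.03, and leaving out low 2 with low 3 gave -0.90.

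**Figure D1:**
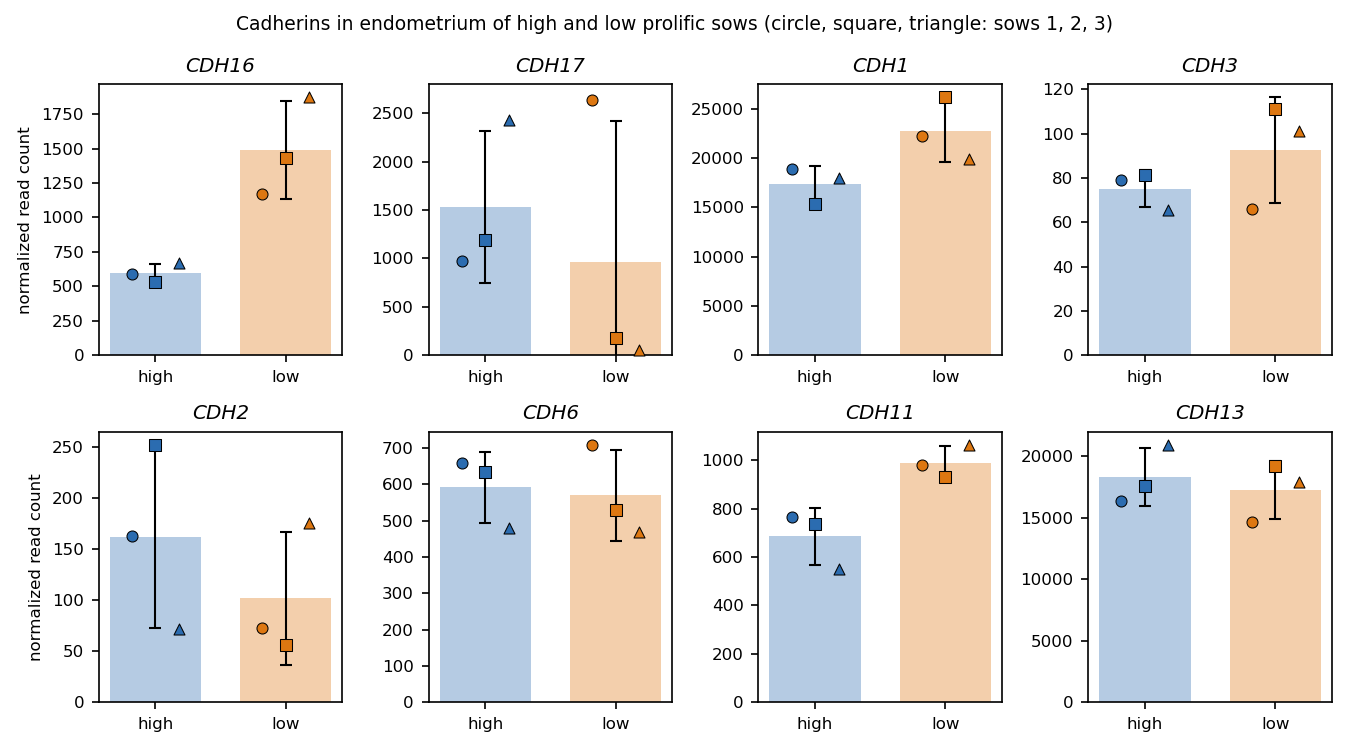
Normalized read counts (linear axes from 0) of the 8 measured cadherins by group, high prolific in blue and low prolific in orange. Each bar is the mean of 3 sows with its SD (for CDH17 cut at 0), and circles, squares and triangles are sows 1, 2 and 3 of a group. The labels do not say that a shared number pairs sows. CDH16 separates the groups (529 to 666 against 1168 to 1872), while CDH17 runs from 55.2 in low 3 to 2639.5 in low 1.

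The remaining epithelial cadherins moved over narrower ranges. CDH1, E-cadherin, the main cadherin of epithelial adherens junctions, was at 18895, 15318 and 17948 in high 1 to high 3. It was at 22226, 26177 and 19927 in low 1 to low 3. The groups did not overlap, but the gap between high 1 and low 3 was 0.08 in log2 units. The means were 17387 ± 1853 and 22777 ± 3161 (SD, n = 3), a log2 difference of -0.39 ± 0.15 (SE). Relative to CDH1 of the same sow, CDH16 was still lower in high prolific sows, with the log2 ratio at -4.87 ± 0.13 against -3.95 ± 0.47 and no overlap. Lengths of the counted transcripts are not used here, so these ratios serve only to compare sows. CDH3, P-cadherin, of basal and placental epithelia, was at 79.0, 81.2 and 65.4 in high prolific sows. In low prolific sows it was at 65.8, 111 and 101, so low 1 sat beside the lowest high prolific sow. Its log2 difference of -0.27 ± 0.26 (SE) became -0.49 when low 1 was left out, -0.12 when low 2 was, and 0.18 when low 2 and low 3 both were.

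Of the cadherins of mesenchyme, CDH11 separated the groups. CDH11, OB-cadherin, found in fibroblasts and endometrial stroma, was at 766, 738 and 551 in high 1 to high 3 and at 978, 928 and 1064 in low 1 to low 3. All 3 high prolific sows lay below all low prolific ones, and the means were 685 ± 117 and 989.8 ± 68.6 (SD, n = 3). The log2 difference was -0.54 ± 0.15 (SE), and it stayed between -0.63 and -0.39 over the 18 alternatives. CDH2, N-cadherin, of neural and mesenchymal cells, was at 162, 252 and 72.2 in high prolific sows and at 73.0, 56.3 and 176 in low prolific sows. High 3 sat among the low prolific sows and low 3 among the high prolific ones. Its log2 difference was 0.67 ± 0.59 (SE), with 0.27 without high 2, 0.34 without low 2, 1.16 without high 3, 1.15 without low 3 and 1.10 with library weights. The log2 ratio of CDH2 to CDH1 within a sow, at times read as a balance of mesenchymal and epithelial adhesion, lay between -7.94 and -5.92 for the high prolific group and between -8.83 and -6.82 for the low prolific group, and overlapped.

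CDH6 and CDH13 were similar in level in both groups. CDH6, K-cadherin, of kidney and other epithelia, was at 659, 634 and 479.6 in high 1 to high 3 and at 709, 529 and 469 in low 1 to low 3. The log2 difference of 0.06 ± 0.20 (SE) turned negative when high 1 (-0.02), low 3 (-0.06) or both low 2 and low 3 (-0.27) were left out. CDH13, T-cadherin, which lacks a cytoplasmic tail, is held in the membrane by a lipid anchor and binds adiponectin, was at 16381, 17561 and 20953 in high prolific sows. It was at 14688, 19198 and 17935 in low prolific sows. Its 6 values spanned 1.43-fold, the narrowest range of the 8 measured cadherins, and the log2 difference was 0.08 ± 0.16 (SE), turning to -0.02 without high 3 and -0.03 without low 1, with 0.31 without both low 2 and low 3.

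Of the 8 cadherins, high prolific sows were higher in 4 and lower in 4, with a median log2 difference of -0.10. Over all genes 7079 lay higher and 7183 lower, with a median of -0.0024. The groups did not overlap in 3 of the 8, CDH1, CDH11 and CDH16, each with the high prolific sows below, where 6.32% of all genes did so. They did not overlap in the other direction in 0 of the 8, where 7.18% of all genes did. The set was put forward on this same contrast, so nothing is read from these shares.

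**Figure D2:**
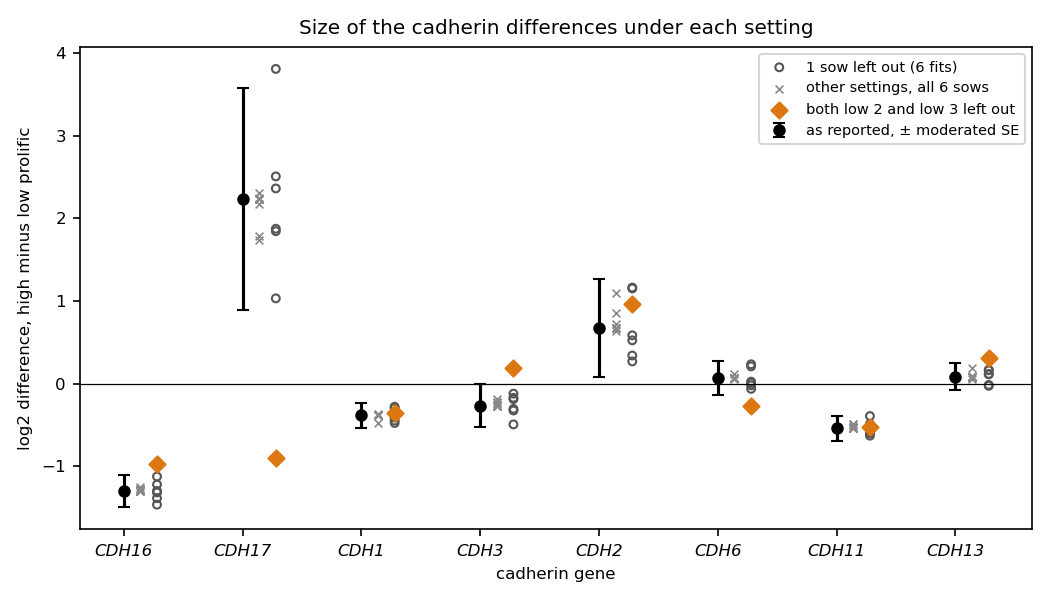
Log2 difference, high minus low prolific, (y axis) of each measured cadherin (x axis), with the moderated SE (black), beside its value with 1 sow left out (open circles), under the other settings with all 6 sows (crosses) and with both low 2 and low 3 left out (orange diamonds). CDH16 stays between -1.47 and -0.98, while CDH17 runs from 3.81 to -0.90.

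The cadherins did not vary together as 1 group. As a description over 6 sows, which share the 2 groups and the normalization, the Pearson correlation of log2 values was 0.80 between CDH16 and CDH11, 0.73 between CDH16 and CDH1, and -0.72 between CDH16 and CDH17. CDH3 ran most opposite to CDH17 (-0.91), and CDH6 opposite to CDH13 (-0.84). CDH2 ran opposite to CDH1 (-0.75). The genes whose pattern was most like that of CDH16, among 11336 others with a symbol and a mean of at least 50, were SLCO4C1 (an organic anion transporter, r = 0.99), CLCF1 (a cytokine of the interleukin 6 family), SOD2 (the mitochondrial superoxide dismutase), CEACAM20 and TRIB2 (a pseudokinase), the last with r = 0.99. SOD2 was at 889, 797 and 1076 in high prolific sows and at 1584, 2346 and 3258 in low prolific sows, with low 3 on top as for CDH16. An r of at least 0.9 with CDH16 was seen in 1.17% of the genes compared. Those most like CDH17 were NDUFAF4 (an assembly factor of respiratory complex I), RBX1 (a subunit of cullin ubiquitin ligases), HINT3, DRAM2 and ETAA1, each at r = 0.99 or above. Their ranges were much narrower than that of CDH17. NDUFAF4, for example, was at 114, 74.8 and 60.5 in the low prolific group, against a span of 97.9 to 109 in the high prolific group. An r of at least 0.9 with CDH17 was seen in 2.58% of genes.

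Marker genes of other cell types moved with the values of some cadherins, and their part in them was not tested. In bulk tissue, fewer cells of a type and less RNA per cell cannot be told apart. Of 17 measured epithelial markers, 9 had the lower and 8 the higher mean log2 value in high prolific sows. Their summed normalized read count was 94931 to 102153 in high and 87026 to 104755 in low prolific sows. Single markers were not all level. KRT8 was at 19084, 27435 and 23245 in high prolific sows and at 25335, 14061 and 11217 in low prolific sows. KRT18 was at 5252, 5687 and 4726 against 6548, 3245 and 3059. Their log2 differences of 0.54 and 0.37 turned to -0.14 and -0.33 without both low 2 and low 3. CLDN4 (-0.63) and CLDN3 (-0.35) lay lower in high prolific sows without overlap, as 6.32% of all genes did. All 8 endothelial markers, of which CDH5 is itself a cadherin, lay lower in high prolific sows, and their sum was 11645 to 17729 in high and 14491 to 27993 in low prolific sows. Their median log2 difference of -0.46 was -0.19 with low 3 left out, -0.74 with low 1 left out, -0.29 with high 3 left out and 0.10 with both low 2 and low 3 left out. Of 9 smooth muscle and pericyte markers 8 lay lower, with sums of 28690.3 to 35849 in high and 36045 to 37770.3 in low prolific sows. The sums did not overlap, but those of high 2 and low 1 nearly met. MYH11, the marker that lay higher (0.33), was at 13483, 21899 and 11627 against 16882, 13364 and 7666. ACTA2, smooth muscle actin, was at 4881, 2732 and 4779 in high prolific sows and at 6676, 10018 and 7297 in low prolific sows. Of 11 stromal markers 10 lay lower, with sums of 508847 to 693965 and 602124 to 814613. With both low 2 and low 3 left out, 6 of the 11 lay lower and the stromal median went from -0.28 to -0.04. VIM was at 25307.5, 20368 and 18567 in high and at 16205, 19146 and 36924 in low prolific sows. Its log2 difference of -0.09 turned to 0.39 without both low 2 and low 3. Of 5 neutrophil markers 3 lay lower, with sums of 349 to 9205 and 11710.3 to 23335. The sums did not overlap, but the groups overlapped in each of the 5 markers taken singly. Their median log2 difference of -1.66 was 0.02 with high 2 left out. None of these markers was at 0 in any sow. Over the 6 sows, as a description, CDH16 correlated more with the mean of the smooth muscle markers (0.89) than of the epithelial markers (-0.23). Its correlations with the stromal, endothelial and neutrophil means were 0.75, 0.72 and 0.72. CDH17 correlated with the endothelial (-0.94), stromal (-0.91) and epithelial (0.77) means. CDH1, like CDH16, correlated more with smooth muscle (0.86) than with epithelium (0.07). CDH13 had correlations of -0.04, -0.07 and -0.05 with the stromal, endothelial and smooth muscle means. Its correlations with the epithelial and ciliated cell marker means were -0.69 and -0.73.

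**Figure D3:**
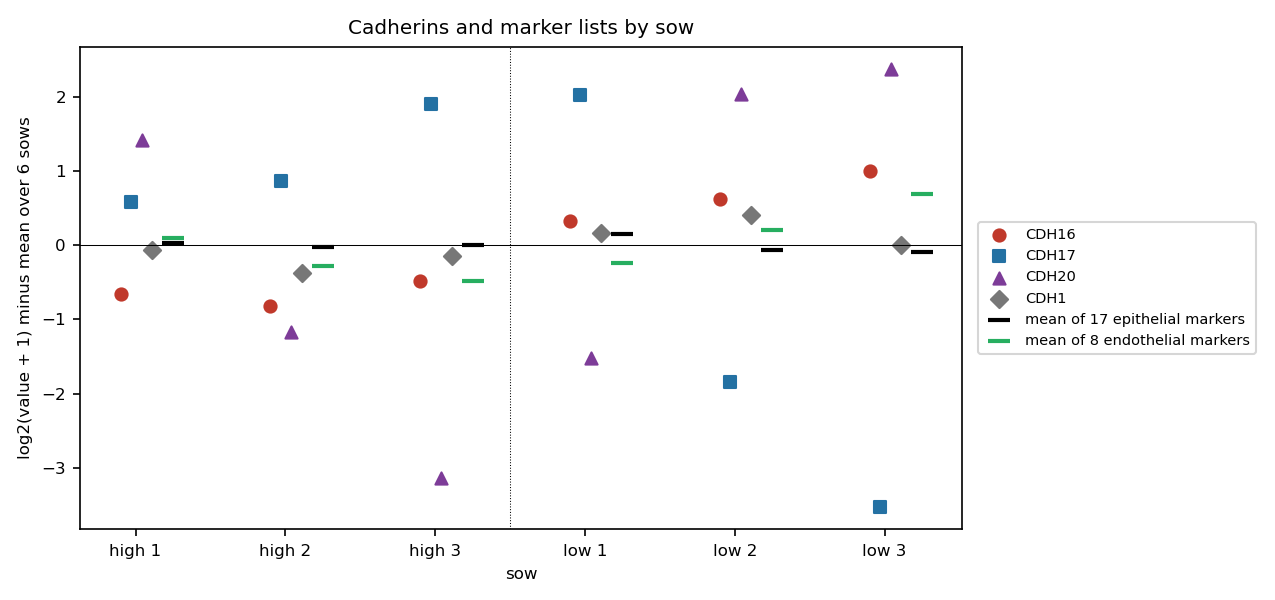
Deviation of log2(value + 1) from the mean of the 6 sows (y axis) in each sow (x axis) for CDH16, CDH17, CDH20 and CDH1 (symbols), with the means of 17 epithelial and 8 endothelial markers (short lines). The epithelial mean stays near 0 in all 6 sows, while CDH17 is far below its own mean in low 2 and low 3 and CDH20 far above.

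Of 19 other cadherins in the list, 6 had a row, and limma called 0 of them at an adjusted p under 0.05 (3 at an unadjusted p under 0.05, beside 7.92% of all genes). CDHR1, a cadherin-related protein known from photoreceptors, was at 187, 403 and 363 in high prolific sows and never above 149.997 in low prolific sows (119 in low 2 and 110.5 in low 3), so the groups did not overlap. CDH18 was at 212, 108 and 126 in high and at 56.9, 95.5 and 84.1 in low prolific sows, again without overlap. CDH24 was at 237, 276 and 262 in high prolific sows and at 274, 519 and 479 in low prolific sows, with low 1 among the former. Its log2 difference of -0.66 ± 0.26 (SE) shrank to -0.09 without both low 2 and low 3. CDH5, VE-cadherin of the endothelial junction, was at 3209, 2147 and 1667 against 2177, 3057 and 4507, with a log2 difference of -0.46 ± 0.33 (SE). Leaving out low 3 or high 3 brought it to -0.19 or -0.24, leaving out high 1 or low 1 to -0.72, parity as a covariate to -0.26, and leaving out low 2 with low 3 to 0.05. CDHR3, a cadherin-related protein of ciliated airway cells, was at 1424, 925 and 927 against 1495, 993 and 607, and its log2 difference of 0.15 ± 0.35 (SE) had no steady sign. It was -0.06 with high 1 left out, -0.19 with low 3, 0.46 with low 1 and -0.48 with both low 2 and low 3, and -0.04 with library weights.

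CDH20 had, like CDH17, a wide spread within groups, with an SD of 2.22 in log2 units beside 0.88 for CDH2. It was at 569 in high 1, 94.0 in high 2 and 23.3 in high 3, and at 73.6 in low 1, 875 in low 2 and 1111 in low 3. High 1 thus sat with low 2 and low 3, and low 1 with high 2 and high 3, so the groups overlapped. Sows low in CDH17 were high in CDH20, with high 3 and low 1 at the top for CDH17 and at the bottom for CDH20. The log2 difference of CDH20 was -1.93 ± 1.44 (SE), and it moved widely: to -3.17 or -3.12 when low 1 or high 1 was left out, to -0.84 or -1.22 when high 3 or low 3 was, to -1.16 with parity as a covariate, and to 0.56 when low 2 and low 3 both were left out.

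The intracellular partners of the classical cadherins came next. In this list and those that follow, the named genes include the 3 with the smallest unadjusted p. Over all genes, 7.92% reached an unadjusted p under 0.05 with limma. High prolific sows lay below without overlap in 6.32% of all genes and above in 7.18%. Each count and each lack of overlap in these lists stands beside those shares. Of 23 measured catenins and adherens junction adaptors, 18 were at lower and 5 at higher means in high prolific sows, with log2 differences from -1.11 (CTNND2) to 0.93 (CTNNA2) and a median of -0.08. Limma called 0 of 23 at an adjusted p under 0.05 (2 at an unadjusted p under 0.05). CTNNB1, beta-catenin, was at 14683, 12810.1 and 14204 in high and at 13899.8, 14267 and 15236 in low prolific sows. CTNNA1, alpha-catenin, was at 13901, 13365 and 13234 against 14325, 13434 and 12863. CTNND1, p120 catenin, was at 10105, 11119 and 12319 against 12107, 14009 and 10903. In these genes, as in JUP, gamma-catenin or plakoglobin, the groups overlapped. JUP was at 5917, 6251 and 6574 against 7057, 6319.8 and 5970.1. The log2 differences (SE) were -0.06 ± 0.11 for CTNNB1, -0.0033 ± 0.10 for CTNNA1, -0.14 ± 0.14 for CTNND1 and -0.04 ± 0.11 for JUP. That of CTNNA1 was 0.06 after quantile normalization and that of JUP 0.02 without low 1, so the direction of both depended on these choices. KIFC3, a motor of the junction, was at 208, 152 and 182 in high and at 199.6, 347 and 382 in low prolific sows. CTNND2, delta-catenin, was at 42.6, 45.1 and 22.4 against 43.4, 109 and 95.4, and ACTN1, an actin crosslinker, at 2935, 2982 and 3719 against 4206, 3965 and 3347. In all 3 the groups overlapped, and the adjusted p with limma was 0.629, 0.629 and 0.668. With low 2 and low 3 left out the log2 difference of KIFC3 went from -0.73 to -0.16, that of CTNND2 from -1.11 to -0.30 and that of ACTN1 from -0.26 to -0.40.

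Other adhesion systems beside the adherens junction gave 0 called genes as well. Of 6 measured nectins and nectin-like molecules 4 lay lower in high prolific sows (0 called by limma, 1 at an unadjusted p under 0.05). NECTIN4 was at 1731, 1407 and 1074 in high and at 1764, 2913 and 2093 in low prolific sows, and the groups did not overlap. CADM1 was at 624, 418 and 239 against 386, 623 and 888, and NECTIN3 at 187, 270.3 and 150.4 against 199.7, 245 and 321. With low 2 and low 3 left out the log2 differences of NECTIN4, CADM1 and NECTIN3 went from -0.68, -0.59 and -0.35 to -0.36, 0.04 and -0.02. Of 8 measured desmosomal genes 6 lay higher and 2 lower, with a median of 0.19 (0 called by limma, 0 at an unadjusted p under 0.05). That median was 0.02 without both low 2 and low 3. DSG2, desmoglein of simple epithelia, was at 2329, 2180.2 and 1991 against 1924, 1744 and 2068. PERP, a desmosomal membrane protein, was at 6682, 7780.2 and 7325 against 8267, 5167 and 4646, and PKP2, a plaque protein, at 730.1, 993 and 998 against 961, 732 and 594. Low 3 was the lowest sow in both PERP and PKP2, and their log2 differences of 0.31 and 0.26 turned to -0.19 and -0.10 without both low 2 and low 3.

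Of 17 measured protocadherins and large cadherins, 5 lay higher and 12 lower, with a median log2 difference of -0.26 that turned to 0.11 without both low 2 and low 3 (0 called by limma, 2 at an unadjusted p under 0.05). PCDH17 was at 790.3, 601 and 736 in high and at 924, 985 and 1384 in low prolific sows, without overlap. FAT1, a large cadherin, lay the other way, at 2891, 3433 and 3079 against 2148, 2168 and 2907, and overlapped. CLSTN1, calsyntenin, was at 6860.3, 6578 and 5849 against 6476, 9210.1 and 7584. With low 2 and low 3 left out the log2 difference of PCDH17 went from -0.62 to -0.39 and that of CLSTN1 from -0.26 to -0.01.

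Transcription factors that act on cadherin genes were read next. Of 20 measured regulators of E-cadherin 8 lay higher and 12 lower (0 called by limma, 1 at an unadjusted p under 0.05). The repressor SNAI2 was at 857, 759.6 and 787 in high and at 564, 844 and 899 in low prolific sows. ZEB1, another repressor, was at 1831, 1738 and 1806 against 1649, 1749 and 2512. Both overlapped between the groups, as did GRHL2, an epithelial activator, at 1556, 1735 and 1978 against 1710.2, 1299 and 1582. KLF4, an epithelial factor, was at 1444, 1585 and 1525 against 1379, 1222 and 1143, and KLF8, a repressor, at 287, 228 and 248 against 343, 332 and 296, both without overlap. ELF3, an epithelial factor, was at 1666, 971 and 887 against 1410.3, 2031 and 1814, and overlapped. With low 2 and low 3 left out the log2 differences of KLF4 and ELF3 went from 0.29 and -0.62 to 0.14 and -0.32.

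Of 8 measured factors linked to CDH16 or CDH17, 5 lay higher and 3 lower, with a median of 0.14 (0 called by limma, 1 at an unadjusted p under 0.05). PAX2, a factor of the kidney and the Müllerian duct, was at 6428, 8737 and 8818 in high and at 6805, 3334 and 3091 in low prolific sows. Low 2 and low 3, the sows lowest in CDH17 and highest in CDH16, were lowest in PAX2 too. The log2 difference of PAX2 went from 0.94 to 0.22 without them. Both sows also stood apart on the first principal component of all genes, and a link of PAX2 to either cadherin was not tested. FOXA2, the factor of uterine glands, was at 1688, 1732 and 1502 against 1667, 1302 and 1146, and GATA6 at 489.7, 399 and 238 against 207, 273 and 324. Both overlapped, and without both low 2 and low 3 their log2 differences went from 0.27 and 0.45 to -0.03 and 0.80. That of FOXA2 was 0.42 without low 1 and 0.15 without low 3. That of GATA6 was 0.23 with high 1 left out, 0.27 with low 1 and 0.74 with high 3. PAX8, CDX2 and ZEB2, also fixed by name, found no match and are not analysed here.

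Among 28 measured genes of cadherin shedding, endocytosis and degradation, 23 were lower and 5 higher in high prolific sows, with a median of -0.08 that turned to 0.04 without both low 2 and low 3. Limma called 0 of 28 (4 at an unadjusted p under 0.05). ADAM17, a sheddase, was at 1251, 1004 and 1205 in high and at 1364, 2442 and 1889.5 in low prolific sows. PTPRB, a phosphatase that binds VE-cadherin, was at 2947, 2792 and 2806 against 3320.2, 5994 and 4242. In both the groups did not overlap. FYN, a Src family kinase, was at 934, 745 and 765 against 917, 1670.02 and 1919, with high 1 above low 1. With low 2 and low 3 left out the log2 differences of ADAM17, PTPRB and FYN went from -0.68, -0.62 and -0.82 to -0.25, -0.22 and -0.18.

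Of 18 measured receptors and ligands that bind cadherins, 10 lay higher and 8 lower, with a median of 0.0065 (0 called by limma, 1 at an unadjusted p under 0.05). ITGAE, the integrin subunit by which intraepithelial lymphocytes hold E-cadherin, was at 266, 295 and 257 in high and at 214, 229 and 242 in low prolific sows, without overlap, a log2 difference of 0.25 ± 0.14 (SE) beside -0.39 for CDH1. ITGA1 was at 1136, 1016 and 952 against 1095, 1709 and 2326, and EGFR, which associates with E-cadherin, at 4351, 5314 and 6026 against 4714, 3806 and 4622. Both overlapped, and without both low 2 and low 3 the log2 differences went from -0.66 to -0.09 for ITGA1 and from 0.25 to 0.14 for EGFR.

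**Figure D4:**
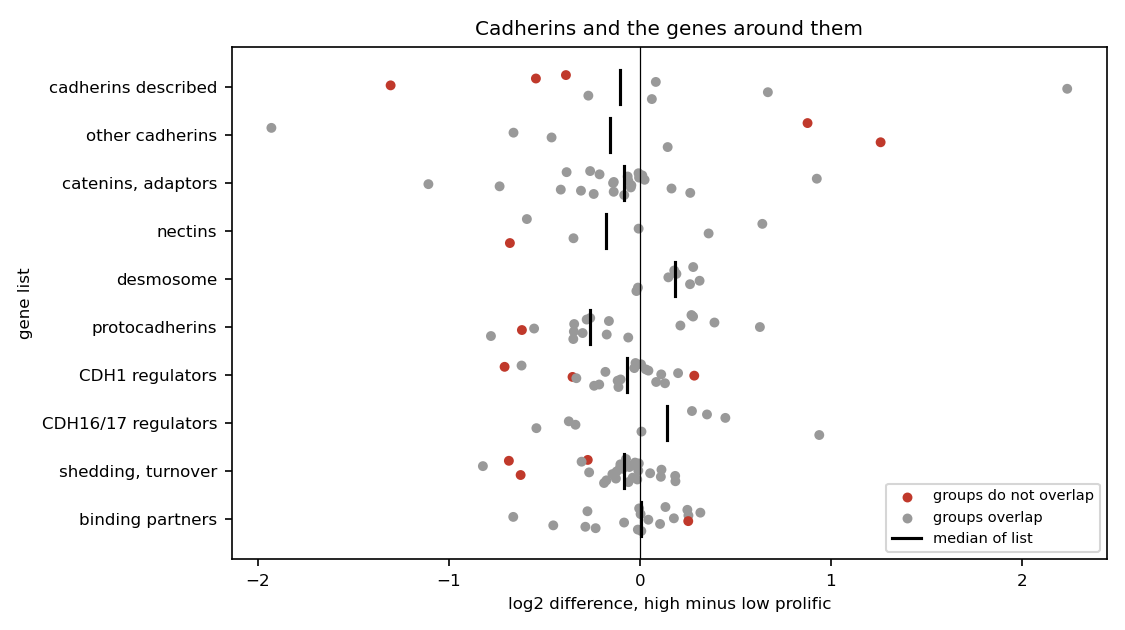
Log2 difference, high minus low prolific (x axis), of every measured gene in the cadherin set and in 9 lists of related genes (y axis). Red points are genes whose groups do not overlap, and black lines are list medians. CDH17 (2.24) and CDH20 (-1.93) lie farthest out, and in both the groups overlap.

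The genes beside each cadherin were read from the order of protein-coding genes in a RefSeq table of the assembly Sscrofa11.1. No source used here gives the assembly behind the deposited values, so no coordinates are printed. This window of 4 genes on each side was chosen after values were seen. CDH1 and CDH3 are next to each other, and the groups separated in CDH1 and overlapped in CDH3. Beside CDH16, 5 of 8 neighbours had a row (NAE1, PDP2, RRAD, CES3 and CBFB), and the groups overlapped in all 5. PDP2 and RRAD, the adjacent genes, had log2 differences of 0.21 and -0.12 beside -1.30 for CDH16. CES3, a carboxylesterase, had the widest of the 5, at -1.03 ± 0.55 (SE), which was -0.40 without high 2 and -1.56 without high 1. Beside CDH17, 4 of 8 neighbours had a row. GEM, PDP1 and RBM12B were higher in all 3 high prolific sows than in any low prolific sow, where 7.18% of all genes were, and TMEM67 was not. The same separation was seen in KCTD1 (0.96) in the window of CDH2, ZFP90 (0.27) in those of CDH1 and CDH3, and CDH18 (0.88) and DROSHA (0.14) in that of CDH6, each with its log2 difference in parentheses. For PDP1 (0.28) the gap was narrow, with 1090 in high 3 against 1084 in low 3. For RBM12B (0.17) it was 1663 in high 3 against 1661 in low 3. GEM, a small GTPase that restrains calcium channels, was at 356, 480.1 and 420.02 in high and at 278, 166 and 287 in low prolific sows, and did not follow low 1 as CDH17 did.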

How the data were processed

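Endometrium RNA of 6 sows, 3 high and 3 low prolific per the labels, was sequenced on Illumina libraries. The deposited table holds 1 normalized read count per gene and sow, a signal that is not whole, and per the submitters' processing notes Subread 1.6, featureCounts and edgeR were used, with their roles not given. No source used here gives the kind of normalization, the genome build, the annotation or the strand setting. Reads of overlapping or antisense genes cannot be told apart. Values under 20 were set against whole multiples of 1 step per library, with a tolerance of 0.1 steps. In high 3 all of them (100%) and in high 1 94.3% lay on such steps, but in the other 4 libraries 40.6% to 64.6% did. Whole reads could thus not be recovered for all 6 libraries, what made the pattern differ between libraries was not tested, and no count model was run. The smallest gene mean in the table was 17.6, and no further filter was applied. Symbols matched 11977 of 14262 genes.

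The fit was limma 3.58.1 (R 4.3.3) on log2(value + 1) with trend and robust moderation, two-sided, adjusted by Benjamini-Hochberg over 14262 genes. It was tested on simulated data. The pseudocount understates the change of low genes. The members, the lists and the alternatives were chosen with earlier results of these data known. Genes named are the cadherins, fixed partners and markers, in each partner list the 3 with the smallest unadjusted p and a mean of at least 50, and the 5 genes most correlated with CDH16 and with CDH17. A fixed partner is not reported here. Neighbouring genes, CDH20's comparison with CDH17 and further markers were added after values were seen. Conceptus, cilia and mesothelium markers were measured in 7 of 15, 8 of 10 and 1 of 6 genes, with 4, 7 and 0 lower in high prolific sows, and leukocyte markers in 12 of 14, with 4 lower.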

Additional observations from a re-analysis of the deposited data

How the results depend on the processing

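Over 18 alternatives limma called 0 of the genes in any cadherin-related list. Over all genes the count called stayed at 0 except with 1 sow left out, where it ranged from 0 to 4 (4 without low 1, 1 without low 2). The count at an unadjusted p under 0.05 was 1129. It lay between 466 (high 2 left out) and 1872 (low 1 left out), with 632 when low 2 was left out, and was 631 without both low 2 and low 3, where fewer samples enter the fit. With the replicate number as a replicate block it was 615. Same-numbered sows did not deviate together (correlations of -0.38, -0.16 and -0.36), and 0 of 3 high prolific sows matched its own number best. With 3 sows per group this check cannot exclude a pairing by number, and the labels state none. Of 142 cadherin values under alternatives, 137 moved by no more than the gene's own SD within groups, a wide limit for CDH17 (2.07). A filter on the gene mean, a fit with no variance trend and the replicate block cannot change a log2 difference. This count therefore does not measure how robust the differences are. The other 5 values (CDH3, CDH6, CDH13, CDH16 and CDH17) were all with both low 2 and low 3 left out, whose cause was not tested. No scaling changed the direction of any of the 8 cadherins, but median-of-ratios and epithelial scaling hardly moved a difference at all. Quantile normalization, which moved the median of all genes most, put it at 0.03.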
